A study of Mus musculus with 4 samples.

Results

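The 8 genes described here, Cck, 4930579F01Rik, Prkg2, Icam2, Anpep, Mal, Htra3 and Abcc2, were among those furthest apart between the 2 culture sets of a mouse melanoma experiment. They were chosen on that difference, set 2 minus set 1, taken separately in control and in treated arrays, and all their probes were followed, so the difference itself is given as a description with no test. The genes had 10 probes on 19 spots, out of 23461 genes with a value and 56605 probes on the array. B16-F10 cells, a pigmented mouse melanoma line grown in medium with 10% fetal bovine serum, were cultured for 24 h without addition (control, 2 arrays) or with 100 ng/mL recombinant Cdh1 (2 arrays). Cdh1 encodes E-cadherin, through which epithelial cells adhere to each other. Each of the 2 sets, which the design text calls independent, held 1 control and 1 Cdh1 culture, and all 4 arrays lay on 1 slide. The labels do not say in what the sets differed (passage, stock, day), so the difference between the sets cannot be told apart from anything that went with the set. All values are of RNA from whole cultures, in which fewer cells making a transcript and less of it per cell cannot be told apart.

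Levels are log2 of the processed intensity relative to the array's 75th percentile, so that 0 is that percentile, and they compare arrays for 1 probe and not probes with each other. Between 59.3% and 61.3% of the non-control spots of an array were well above background, and 0 were saturated. The 75th percentile itself lay between 568.7 and 623.2 intensity units. All 9 melanocyte markers checked, among them Tyr, Dct, Pmel and Sox10, were well above background on all 4 arrays. Of these, 5 were lower in set 2 and 0 higher (limma, Benjamini-Hochberg adjusted p under 0.05). Of all genes, 10.9% were called lower and 7.14% higher, or 18.1% in either direction, as were 14.6% of all probes. Tyr led the 5 markers with a difference of -1.77. The summed signal of the list, in units of the 75th percentile, was 1617 and 1582 in set 1 and 1358 and 1354 in set 2 (control, then Cdh1). The part of this in the results below was not tested. Here and below, the limma fit between the sets compares 1 culture set with 1 other. Its SE and p measure the spread between the control and the Cdh1 array within a set, not the variation among culture sets.

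The choice was checked against all genes. Taking the 13998 genes that every array measured well above background, Cck had the largest mean fall of 7602 genes that were lower in set 2, and 4930579F01Rik the largest mean rise of 6396 that were higher. Prkg2, Icam2, Anpep, Mal, Htra3 and Abcc2 ranked from 4 to 10 among the rises. The places between were held by the long noncoding transcripts Gm28523 (a difference of 2.60) and D630024D03Rik (2.51) and by Gemin5, whose mean of 3.40 came from the Cdh1 arrays alone (6.67, against 0.13 in control arrays). Just outside lay Tspan2 at 2.16, Asic4 at 2.12 and Sema3f at 2.11, against 2.19 for Abcc2 as the last gene inside. The 8 were thus not simply the genes furthest apart, and 24 genes, Cck among them, fell by more than Abcc2 rose. After Cck came Trpm1, a melanocyte ion channel (-3.51), Lncbate10 (-3.41) and Irf7, an interferon regulator (-3.13). Genes below background in 1 of the sets are not in this order.

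The genes have unrelated products. Cck encodes cholecystokinin, a peptide hormone of gut and brain that is cut from a precursor by prohormone convertases and acts on the receptors Cckar and Cckbr. Prkg2 encodes a membrane-bound protein kinase activated by cyclic GMP, which guanylate cyclases make and phosphodiesterases remove. Icam2 is an adhesion molecule of endothelium and blood cells that binds leukocyte integrins. Anpep encodes aminopeptidase N, a zinc enzyme of the cell surface that trims peptides. Mal is a small membrane protein of myelin, T cells and apical transport, Htra3 a secreted serine protease, and Abcc2 an efflux pump for conjugated organic anions best known from the bile side of liver cells. The product of 4930579F01Rik is annotated as protein-coding and carries no functional name in the table used.

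Cck went from a level near the 75th percentile in set 1 to a dim signal in set 2. Its 1 probe was printed 10 times on each array, and the mean intensity in set 1 was 646 for control and 478 for Cdh1. In set 2 it was 27.3 for control and 31.2 for Cdh1. The corresponding levels, in that order, were 0.18, -0.27, -4.51 and -4.30. Both arrays of set 1 were high and both of set 2 low, with no overlap. The fall was 25.9-fold in control and 16.4-fold in Cdh1 arrays, or -4.70 and -4.04 on the log2 scale.

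The repeated spots give the technical error behind these values. The SD over the 10 spots was 0.057 and 0.050 on the arrays of set 1 (control, then Cdh1), and 0.14 and 0.27 on those of set 2. The lowest spot of set 1 read 458 intensity units and the highest of set 2 read 38.7. Spots of 1 array share its RNA and are no replicates of the culture. In set 2 the probe was still well above background on both arrays, and the lowest level that any probe called so reached was -6.04 in control set 2 and -5.60 in Cdh1 set 2.

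**Figure D1:**
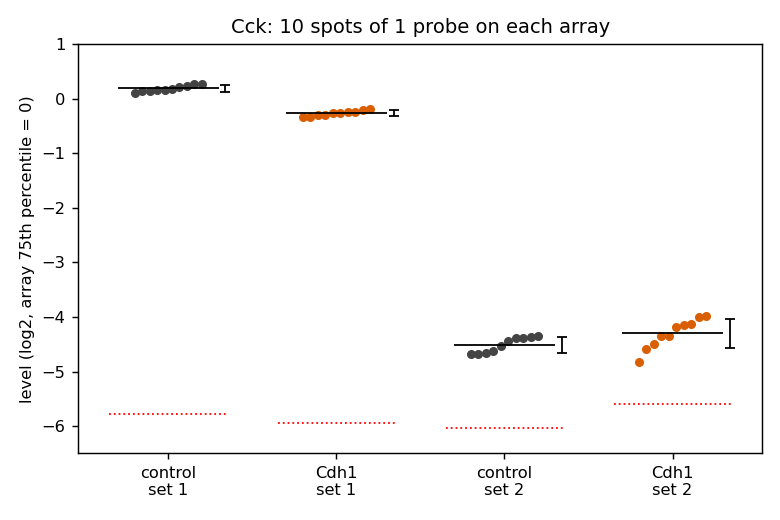
Level of the Cck probe on each of the 4 arrays (log2, array 75th percentile = 0). Points are the 10 spots of the probe, the black line is their mean, the bar to its right 1 SD over spots, and the dotted red line the lowest level of any probe well above background on that array. The spots of set 1 lie between -0.33 and 0.27 and those of set 2 between -4.82 and -3.99.

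Genes that process peptide hormones were read beside Cck. Of 16 genes for that processing, for related peptides and for the Cck receptors, 10 were tested between the sets, 1 rose and 0 fell, at a median difference of 0.11 against -0.03 over all 14729 genes tested. In the same fit 7.14% of all genes rose and 10.9% fell. The gene that rose was Scg5, a chaperone of prohormone convertase, with levels of -3.04 and -3.26 in set 1 (control, then Cdh1) and -2.45 and -2.52 in set 2. It rose by 0.66 ± 0.10 (SE, limma adjusted p 0.0344, n = 2 per set). The convertase gene Pcsk2 differed by -0.58 with an SE of 0.26, which was not called (limma adjusted p 0.204). The receptor gene Cckar was well above background on 0 arrays and Cckbr on 1 of the 4.

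4930579F01Rik had the largest rise. Its intensity in set 1 was 86.2 for control and 75.5 for Cdh1, and in set 2 it was 2162 for control and 2219 for Cdh1. The arrays of a set lay close together and the sets far apart. The rise was 22.9-fold in control and 27.5-fold in Cdh1 arrays, or 4.52 and 4.78 on the log2 scale. Of the 8 genes, only this one and Cck were at least 8-fold apart in both pairs of arrays, as were 27 of all 14641 genes.

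Prkg2 was read by a pair of probes to the same RefSeq transcript, and the probes disagreed. One of them gave intensities of 87.3 and 98.5 in set 1 (control, then Cdh1) and 644 and 538 in set 2. On that probe both arrays of set 2 were high, by 6.73-fold in control and 5.11-fold in Cdh1 arrays. The other was well above background on 0 of the 4 arrays, with intensities between 2.17 and 2.92, so it set no level in either set. The rise of Prkg2 rests on 1 probe, and the mean of both probes gave 1.29 in place of 2.55.

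Of 18 other genes of cyclic GMP signalling, 14 were tested, 2 rose and 0 fell (7.14% and 10.9% of all genes). The median difference was -0.03. Npr3, the clearance receptor of natriuretic peptides, had levels of -3.89 and -3.84 in set 1 and -2.03 and -2.08 in set 2. It rose by 1.81 ± 0.06 (SE, limma adjusted p 0.00737, n = 2 per set). Gucy1a1, the alpha subunit of soluble guanylate cyclase, was well above background on both arrays of set 2 and on neither of set 1, and was at least 2.75-fold higher in set 2. In such a bound the dim side is taken, array by array, as the lowest signal called well above background or the probe itself if that read more, and then averaged. The limma adjusted p was 0.0301. Its beta partner Gucy1b1 was well above background on 0 arrays. Prkg1, the closest relative of Prkg2, was well above background on all arrays and differed by -0.12 ± 0.08 (SE, limma adjusted p 0.323).

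Icam2 rose evenly in both treatments. Its intensities in set 1 were 88.7 for control and 89.5 for Cdh1, and those in set 2 were 559 for control and 532 for Cdh1. The fold was 5.75 in control and 5.56 in Cdh1 arrays, and within a set the arrays differed by at most 0.05 on the log2 scale. Its family and partners were read as 10 genes for other ICAMs, Vcam1, leukocyte integrin chains and the linkers ezrin, moesin and radixin. Of these, 9 were tested and 0 were called in either direction, beside 18.1% of all genes, with a median of -0.08. With 9 genes, nothing is read from that count. Icam1, the furthest apart, was well above background in set 1 only, at least 1.53-fold above set 2 (limma adjusted p 0.102). Icam4 and Icam5 differed by 0.03 and -0.03.

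Because Icam2 marks endothelium and blood cells, and Anpep myeloid cells among others, the markers of such cells were read beside them. Of 9 endothelial markers, 6 were not well above background on any array, namely Cdh5, Kdr, Tek, Tie1, Emcn and Cldn5. The summed signal of the list was 0.530 and 0.429 in set 1 and 0.152 and 0.182 in set 2, in 75th percentile units. Most of the sum in set 1 was Vwf, with levels of -1.28 and -1.73 there and -4.10 and -4.30 in set 2. Vwf had a difference of -2.70 (limma adjusted p 0.0119). Pecam1, the other marker tested, differed by -0.06 (limma adjusted p 0.842). The part of these markers in the difference of Icam2 was not tested. Of 8 leukocyte markers, 4 were well above background on all arrays, namely Itgam, Cd3e, Cd68 and Csf1r, and Ptprc and Adgre1 were on none. The summed signal of the 8 was between 10.9 and 12.8 on all 4 arrays, most of it from Itgam alone, and 0 of the 5 tested were called. Of 7 epithelial markers, Cdh1 and Esrp1 were well above background on all 4 arrays, and Epcam, Krt8, Krt18 and Krt19 on none. The summed signal ranged from 0.182 to 0.223. Of 7 fibroblast markers, 4 were well above background on all arrays, and Dcn, Lum and Thy1 on none. The sum, most of it from Col1a2 alone, was 3.61 and 3.41 in set 1 and 2.88 and 2.75 in set 2. Of the 4 tested, 2 fell, Col1a1 with a difference of -1.22 and Pdgfra with -0.41 (limma adjusted p 0.0240 and 0.0364).

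Anpep was low in set 1 and higher in set 2. Its intensity in set 1 was 26.0 for control and 22.6 for Cdh1, and in set 2 it was 155 for control and 137 for Cdh1. That is a rise of 5.42-fold in control and 5.68-fold in Cdh1 arrays. Among 13 related zinc peptidases and other peptidases of the surface, 9 were tested, with a median of 0.21. Of the 9, 2 rose and 1 fell (7.14% and 10.9% of all genes). The rises were those of Aopep, by 0.44 with an SE of 0.07, and Rnpep, by 0.32 with an SE of 0.06 (limma adjusted p 0.0401 and 0.0448). Erap1, which trims peptides for antigen presentation, fell, with a difference of -0.75 ± 0.12 (SE, limma adjusted p 0.0372). Enpep, the gene of aminopeptidase A, was well above background on 0 arrays.

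Mal rose from intensities of 46.9 and 47.3 in set 1 to 274 and 239 in set 2 (control, then Cdh1). The arrays of set 1 were nearly equal and both arrays of set 2 lay above them, by 5.32-fold in control and 4.73-fold in Cdh1 arrays. Of 19 further membrane proteins of its MARVEL fold and of the proteolipid family, 13 were tested, with a median of 0.07. Of the 13, 1 rose and 1 fell (7.14% and 10.9% of all genes). Plp2 rose by 0.69 with an SE of 0.06 and Myadm differed by -0.54 with an SE of 0.06 (limma adjusted p 0.0165 and 0.0202). The nearest relatives Mal2 and Mall were well above background on 0 arrays.

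Htra3 was read by a pair of probes to different RefSeq transcripts, and only one of them was far apart. The probe to NM_030127 had intensities of 130 and 109 in set 1 (control, then Cdh1) and 570 and 618 in set 2. The probe to NM_001042615, well above background on all 4 arrays too, had 128 and 116 in set 1 and 174 and 150 in set 2. The difference between the sets was thus 1.996 in control and 2.41 in Cdh1 arrays on the first probe, and 0.31 and 0.28 on the second. Which transcript each probe can detect beyond its named accession was not examined. Of 12 genes for other HTRA proteases, IGF binding proteins and TGF-beta ligands, 9 were tested, at a median of -0.03. Of the 9, 2 rose and 0 fell (7.14% and 10.9% of all genes). These were Igfbp4 and Tgfb3, each by less than 1.25-fold, with differences of 0.29 and 0.27, SEs of 0.05 and limma adjusted p-values of 0.0478 and 0.0497. Htra1 differed by -0.41 ± 0.14 (SE, limma adjusted p 0.126).

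Abcc2 rose by nearly the same amount in control and in Cdh1 arrays. Its intensities were 25.3 and 24.9 in set 1 and 127 and 122 in set 2. The rise was 4.59-fold in control and 4.57-fold in Cdh1 arrays. Of 19 further ABC efflux transporters and regulators or targets of xenobiotic defence, 16 were tested, with a median of -0.22. Of the 16, 0 rose and 6 fell (7.14% and 10.9% of all genes). The largest fall was that of the drug efflux pump gene Abcb1a, at -1.45 ± 0.17 (SE, limma adjusted p 0.0225), which has close paralogs in Abcb1b and Abcb4, also called, so that their probes may share signal. Gclm and Gclc, the subunits of the enzyme that limits glutathione synthesis, differed by -0.77 and -0.60, each with an SE of 0.06 (limma adjusted p 0.0133 and 0.0178). Nqo1, a quinone reductase gene, differed by -0.67 (limma adjusted p 0.0390). The other ABCC genes tested, Abcc1, Abcc4, Abcc5, Abcc6 and Abcc10, were not called, with differences between -0.23 and 0.01.

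**Figure D2:**
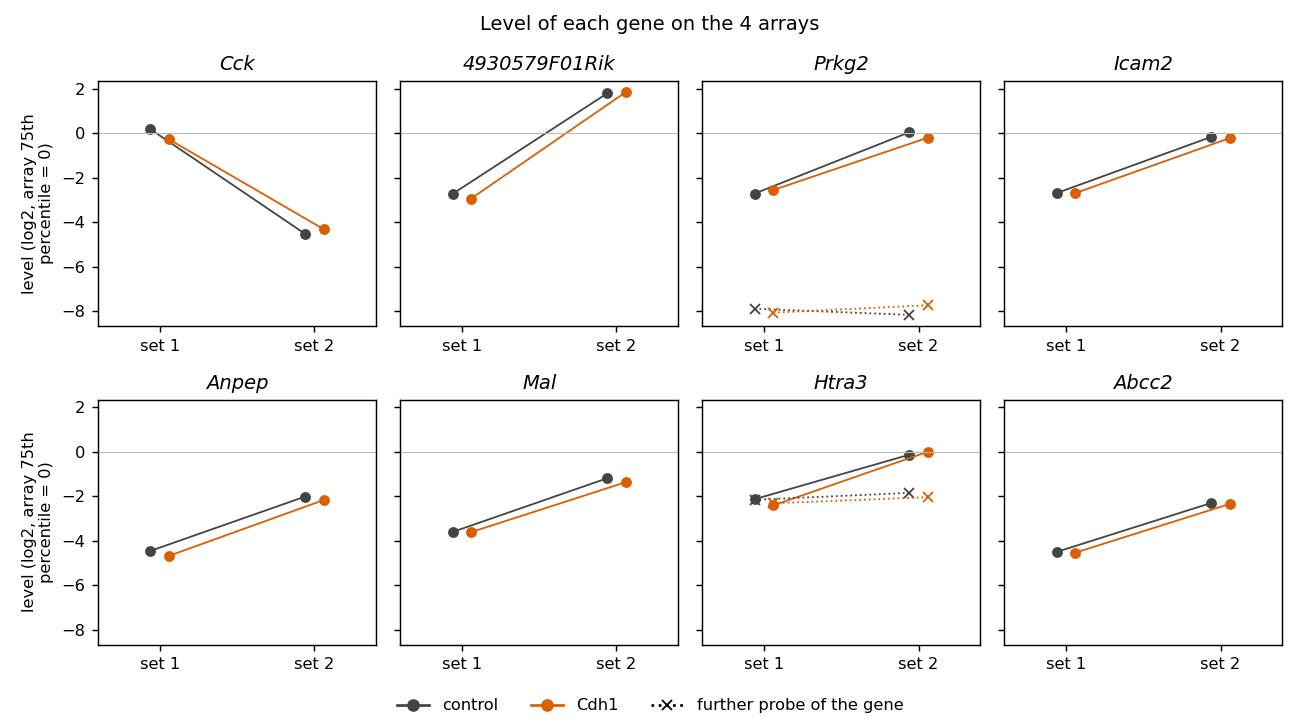
Level of each gene on the 4 arrays (log2, array 75th percentile = 0), with set on the horizontal axis, control in grey and Cdh1 in orange. Lines join the arrays of 1 treatment. Crosses with dotted lines are the further probes of Prkg2 and Htra3, which do not follow the first. Cck falls and the other 7 genes rise from set 1 to set 2, in both treatments alike.

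Over the 7 lists, 80 of 107 genes were tested, of which 8 rose and 8 fell (7.14% and 10.9% of all genes). Gucy1a1, not well above background in set 1, is counted among the rises. The count moved with the settings: with the treatment as a term in the same fit 4 genes were called (Gclc, Gclm, Npr3 and Plp2), without any 1 of the 4 arrays 0 were, and with normexp 31 and a trended prior 36 were. Between the sets 8061 to 9587 of all probes had an unadjusted p under 0.05 in the limma fits that leave out an array.

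**Figure D3:**
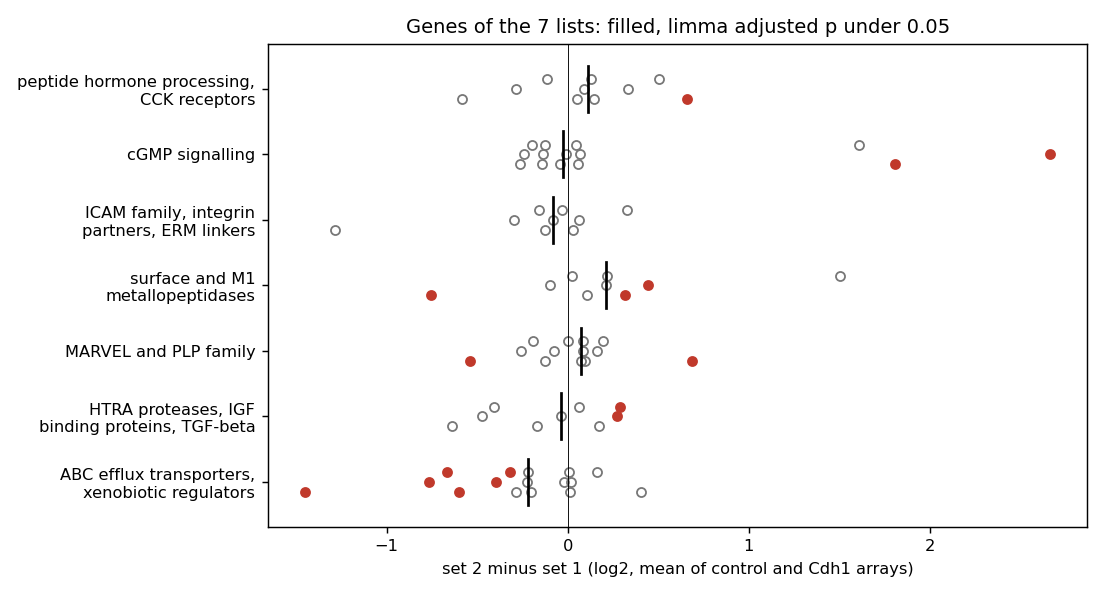
Difference between the sets (log2, mean over control and Cdh1 arrays) for the tested genes of the 7 lists, 1 point a gene. Filled red points were called (limma adjusted p under 0.05) and black bars are list medians. Gucy1a1 and Npr3 stand far to the right in the cyclic GMP list, and the called genes of the transporter list all lie left of 0.

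Across the 8 genes the sets did not overlap in any: 7 were higher and 1 lower in set 2 on both arrays. Among all 14641 genes well above background on both arrays of a set, 31.7% were higher in set 2 without overlap and 41.3% lower. A difference of at least 4-fold in control and in Cdh1 arrays alike was met by 7 of the 8, with 6 higher and Cck lower, beside 0.225% of all genes higher and 0.56% lower (0.785% in either direction). Htra3 missed it at 3.99-fold in control arrays. Since the genes were chosen on this difference, these counts are a description. Cck and 4930579F01Rik changed by similar sizes in opposite directions, 20.6-fold and 25.1-fold in the mean. The other 6 genes lay within a root mean square difference of 0.27 from each other over the 4 arrays, each centred on its own mean. That closeness follows largely from the choice, since the measure takes in the difference between the sets.

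**Figure D4:**
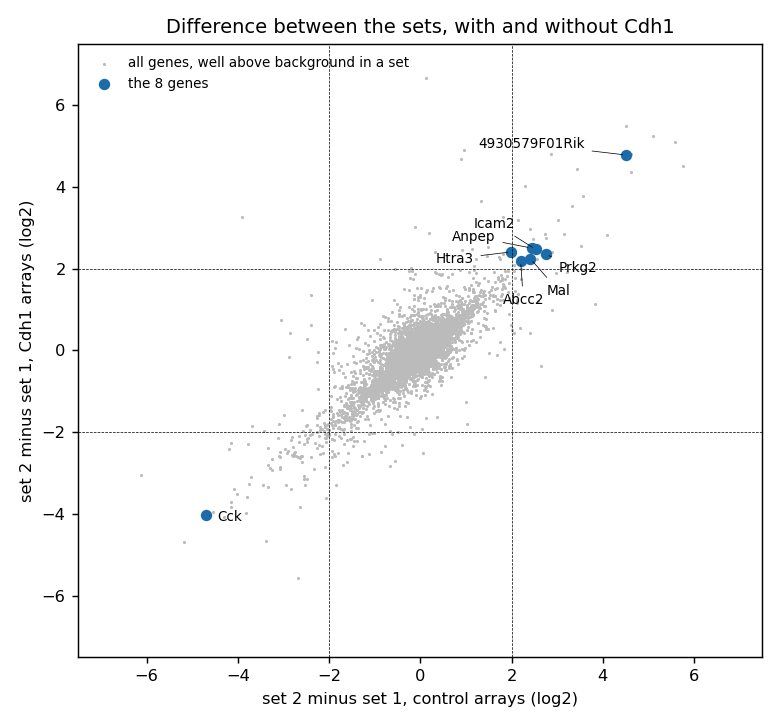
Set 2 minus set 1 in the Cdh1 arrays (vertical) against the same in the control arrays (horizontal), both log2, for 14641 genes (grey) and the 8 genes (blue). Dashed lines mark 4-fold. The 8 genes lie near the diagonal, with Cck at -4.70 and -4.04 and 4930579F01Rik at 4.52 and 4.78.

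The difference with recombinant Cdh1 was not used to choose the genes. The limma fit of Cdh1 against control called 0 of the 8 genes and 0.0% of all 33209 probes (520 at an unadjusted p under 0.05), and the adjusted p of each rounded to 1. None of the 8 was 2-fold apart in the same direction in both sets, as 0.041% of all genes were. In none did control and Cdh1 arrays separate, against 13.8% of all genes, but nothing is read from that count, because genes chosen for a large difference between the sets overlap unless the Cdh1 difference is larger still. Mean differences, Cdh1 minus control, ranged from -0.19 for Anpep to -0.03 for Icam2. All 8 were below 0, as were 58.3% of all genes, and 4 were below 0 in both sets, as were 31.3% of all genes. Without the set in the model the SE was 2.25 for Cck, since the spread within a group is then the difference between the sets. With the set number as a block it was 0.20, and for the others it lay between 0.06 and 0.14. With that block the lowest adjusted p was 0.723, for Anpep (limma, n = 2 per group). The transcript of Cdh1 itself was dim, with levels between -4.56 and -4.38, and differed by -0.03 with an SE of 0.12 (limma adjusted p 1).

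Within the sets, the largest difference with Cdh1 was that of Cck in set 1, from 646 to 478 intensity units, or -0.45 on the log2 scale. All 10 spots of the probe were lower with Cdh1 there, by 0.40 to 0.59. In set 2, where the probe was dim but still well above background, the difference was 0.21, with 8 spots higher and 2 lower. Htra3 also went from -0.28 in set 1 to 0.13 in set 2, while Prkg2 went from 0.16 to -0.24. Anpep was lower by similar amounts in both sets, -0.22 and -0.16. The SD of the same difference over all genes was 0.219 in set 1 and 0.218 in set 2.

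**Figure D5:**
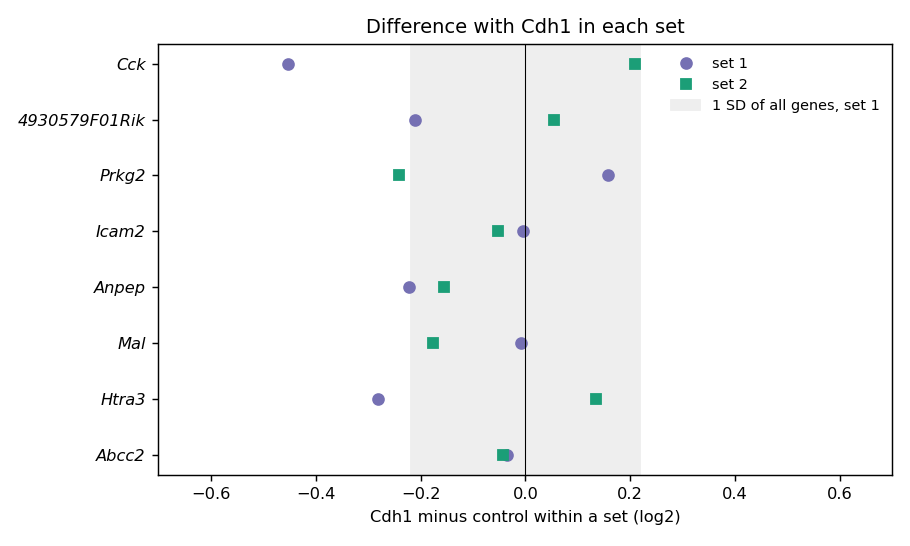
Cdh1 minus control (log2) for each of the 8 genes in set 1 (circles) and set 2 (squares), 1 array against 1. The grey band is 1 SD of that difference over all genes in set 1, 0.219 to either side of 0. Only Cck and Htra3 in set 1, Anpep just at the edge of it in set 1 and Prkg2 in set 2 reach beyond the band.

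The start regions of the genes were compared because 7 of them were higher and Cck lower in set 2. RefSeq windows (GRCm38.p6) of 300 bases, 250 before and 50 after the start of transcription, were at hand for Cck, 4930579F01Rik, Anpep, Mal, Htra3 and Abcc2. The 250 bases before the start are shown for Cck, as the gene that fell, and for Anpep and Abcc2, as the windows with the most and the fewest CpG pairs among the 6. Capitals mark matches to the motifs searched, and each sequence runs 5′ to 3′ on the strand of the gene.
Cck, GRCm38.p6, chr9:121495695-121495944, minus strand: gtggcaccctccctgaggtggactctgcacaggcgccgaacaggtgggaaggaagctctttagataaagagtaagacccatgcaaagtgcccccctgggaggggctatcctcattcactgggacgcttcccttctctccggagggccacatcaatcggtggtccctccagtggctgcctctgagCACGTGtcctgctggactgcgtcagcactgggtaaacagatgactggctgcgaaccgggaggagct
Anpep, GRCm38.p6, chr7:79848211-79848460, minus strand: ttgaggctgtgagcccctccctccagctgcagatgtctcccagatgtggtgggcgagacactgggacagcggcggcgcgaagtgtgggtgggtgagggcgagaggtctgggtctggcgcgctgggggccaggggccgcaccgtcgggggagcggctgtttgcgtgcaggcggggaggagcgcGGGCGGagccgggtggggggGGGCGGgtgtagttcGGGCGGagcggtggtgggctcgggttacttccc
Abcc2, GRCm38.p6, chr19:43782058-43782307, plus strand: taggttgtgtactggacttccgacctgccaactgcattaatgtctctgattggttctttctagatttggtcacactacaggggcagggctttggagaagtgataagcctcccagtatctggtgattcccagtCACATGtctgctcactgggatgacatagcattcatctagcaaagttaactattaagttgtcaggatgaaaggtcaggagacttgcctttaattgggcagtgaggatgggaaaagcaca
The motifs, on both strands, were the cyclic AMP response element TGACGTCA, the E-boxes CACGTG and CATGTG, the AP-1 site TGACTCA, the TATA box TATAAA and the GC box GGGCGG. No motif was shared by 2 of the 6 windows. CACGTG was found in that of Cck alone, 66 to 61 bases before the start, and is held by 7.15% of 32851 RefSeq windows. CATGTG was found in that of Abcc2 alone, on the other strand and so printed as CACATG, 118 to 113 bases before the start, against 14.2% of all windows. The GC box occurred 4 times in that of Anpep, against 35.7% of all windows that hold it. The last of these matches lay 20 to 25 bases after the start, outside the printed sequence. The exact letters of the other 3 motifs were in none of the 6, and variants of any motif were not searched. Anpep had 28 CpG pairs, Cck 10, Mal 8, 4930579F01Rik 6, Htra3 3 and Abcc2 1, beside a median of 7. These are matches of letters in a window, and no binding was measured.

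Genes next to the 8 on the chromosome were read in the same way, a comparison chosen after the values of the 8 were seen. Of the 32 nearest tested genes, 2 on each side, 8 rose and 3 fell between the sets (limma adjusted p under 0.05; 7.14% and 10.9% of all genes), with a median difference of 0.06. Beside Htra3, Sh3tc1 rose by 1.05 ± 0.13 (SE, limma adjusted p 0.0272). Beside Abcc2, Gm10768 rose by 1.30 (limma adjusted p 0.0190). The neighbours of 4930579F01Rik differed from it and from each other: Mttp rose by 0.86, and the alcohol dehydrogenase genes Adh7 and Adh1 were at -1.38 and -0.77 (limma adjusted p 0.0100, 0.00945 and 0.0163). The genes beside Icam2, Prr29 and Ern1, were at 0.04 and -0.32 (limma adjusted p 0.696 and 0.0434).

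The genes most like each of the 8 over the 4 arrays were sought by the root mean square difference of centred levels. The 8 themselves were left out of the search. Among them, Mal and Abcc2 lay 0.082 apart, and Prkg2 and Icam2 0.092. Cck was closest to Wdr95 (0.15), Ntrk3 (0.22) and Tmc7 (0.26). 4930579F01Rik was closest to As3mt (0.03), an arsenic methyltransferase, and to Adm (0.16), the peptide hormone adrenomedullin, and Tspan18 (0.28). The 3 genes most like Cck in set 2, and the 3 most like 4930579F01Rik in set 1, read below the lowest signal called well above background, so their differences are measured on 1 side only. D630024D03Rik was the closest to Icam2 (0.04) and Anpep (0.05), and Tspan2 to Abcc2 (0.03) and Mal (0.09). Asic4 was the closest to Htra3 (0.05). Gm12530 was the closest to Prkg2 (0.08), but it too read below that lowest signal in set 1; next came D630024D03Rik (0.12).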

How the data were processed

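Per the file headers, the authors scanned 4 Agilent 1-colour arrays and extracted them with Feature Extraction (12.0.3.1). The deposited processed intensity is background-subtracted and detrended within each array, without scaling between arrays. The authors' deposited table of intensities equals it times 1 factor per array (0.8735 to 0.9304; 0 of 59305 values off by more than 1e-06 on the log2 scale); it is linear and uncentred, with medians of 4.92 to 5.02 on the log2 scale. Here log2 intensities were set to 0 at each array's 75th percentile, outlier spots (115 to 143 per array) were left out and spots averaged. Probes were named through RefSeq accessions (33767 of 56605). A gene is its probe with the highest mean signal. Where both arrays of some group or set were well above background, probes were fitted with limma 3.58.1 (R 4.3.3), Benjamini-Hochberg over 33209 probes, threshold 0.05, tested on simulated data. Figures used Python 3.11.15 and matplotlib 3.10.9.

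The 8 genes and all lists were chosen with earlier results of these data known. Named genes are the 8, Cdh1, up to 2 called genes per list and direction or else the largest difference, the 3 most alike and the 3 next in order; nearest relatives, marker genes and chromosome neighbours were named after their values were seen. The set number pairs the arrays per the design text; same-numbered arrays deviated together (correlation 0.744 over 31155 probes). The labels name no separate cultures beyond the sets, and 2 arrays a group limit the precision. Alternatives were 3 other scalings, the authors' table, outlier spots kept, other filters, a trended prior, blocks and each array left out. The missing mean-signal column was replaced by the median signal in normexp (offset 50).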

Additional observations from a re-analysis of the deposited data

Results flagged for a closer look

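The difference with Cdh1 had opposite signs in the sets for 4 of the 8 genes and for Cdh1 itself, with 1 array against 1 in each set, and the difference was not tested. From set 1 to set 2 it moved by 0.66 for Cck (-0.45 and 0.21), by 0.26 for 4930579F01Rik (-0.21 and 0.05), by 0.42 for Htra3 (-0.28 and 0.13), by -0.40 for Prkg2 (0.16 and -0.24) and by -0.079 for the Cdh1 transcript (0.0058 and -0.074). Among all genes 49.0% had opposite signs.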

How the results depend on the processing

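All 8 genes kept their direction between the sets under each alternative run. Among the scalings, normexp, which adds an offset, gave the smallest differences: -2.83 for Cck, 3.93 for 4930579F01Rik, 1.97 for Prkg2, 1.96 for Icam2, 1.75 for Htra3, 1.498 for Mal, 1.24 for Anpep and 0.99 for Abcc2. The count of 7 genes at least 4-fold apart in both pairs was then 2, as it was at 8-fold; over all 14641 genes the count went from 115 to 10 with normexp and to 27 at 8-fold. The mean of all probes gave 1.29 for Prkg2 and 1.25 for Htra3. The count of 0 probes called for Cdh1 against control (limma) was 0 under each alternative, at 106 to 2327 unadjusted. The set number as a replicate block changed no call (lowest adjusted p 0.689 over all probes).

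Between the sets 4846 probes were called (limma), against 8846 with normexp, 11103 with the trended prior, 1738 with the treatment as a term, 0 without the filter on dim probes (9529 unadjusted) and 0 to 0 with each array left out (8061 to 9587 unadjusted). List genes called were 16, against 31, 36, 4, 0 and 0 to 0 in the same order; list genes called for Cdh1 were 0 throughout.

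With 1 array left out, the sets are unequal between the groups, and the Cdh1 difference then takes in the set difference by construction. It ranged from -2.47 to 2.23 for Cck, -2.47 to 2.31 for 4930579F01Rik, -1.42 to 1.33 for Prkg2, -1.29 to 1.23 for Icam2, -1.44 to 1.06 for Anpep, -1.30 to 1.11 for Mal, -1.28 to 1.13 for Htra3 and -1.14 to 1.06 for Abcc2. The mean of both probes turned that of Prkg2 to 0.043; the second probe was below background. Signal over background limits Cck in set 2 and Anpep and Abcc2 in set 1.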
